A study of Mus musculus with 4 samples.

Results

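Hes and Hey proteins are the transcriptional repressors through which Notch signals are read out in many tissues, and Nrarp and Dtx1 (Deltex) act back on the Notch receptor and its nuclear complex. A Notch receptor that meets a ligand on a neighbouring cell is cut, and the freed intracellular part joins the DNA-binding protein Rbpj to switch on genes of the Hes and Hey families. The Hes1 protein also represses its own gene, and in blood development Notch signalling is known for its part in the emergence of stem cells and in the choice of the T cell fate. The members were every probe set of the array annotated to exactly 1 of the symbols Hes1, Hes5, Hes6, Hey1, Hey2, Heyl, Nrarp and Dtx1. This rule used no measured value, but the symbols were chosen with earlier results of these data known. The rule gave 8 of the 18193 genes on the array, with 14 probe sets, of 34945 that carried 1 gene symbol and 45037 in all.

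The RNA came from foetal liver cells of mouse embryos at E13.5 that were sorted as lineage negative, cKit positive and Sca1 positive (LSK), the fraction that holds haematopoietic stem cells and early progenitors. All samples, negative and positive, had the genotype Hes1 GFP/WT, that is 1 Hes1 allele with a GFP reporter and 1 wild-type allele. The groups were HES1-GFP negative cells (3 arrays) and HES1-GFP positive cells (1 array), with no treatment given in the labels, and 5 ng of total RNA was amplified for each array. The labels do not say how the GFP allele is built, whether embryos were pooled or whether each negative sample had a litter or sort of its own, so p-values measure the spread between these samples, some of which may be technical.

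The 4 arrays had median linear intensities of 74.7 to 76.1, and every value below is a log2 intensity or a difference of log2 intensities. Of the markers of the sorted cells, Kit, the receptor used in the sort, was at 9.90, 9.72 and 9.68 in negative replicates 1, 2 and 3 and at 10.13 in the array labelled positive, and the stem and progenitor antigen Cd34 was at 11.42, 10.80, 11.70 and 11.87 in the same order. Ly6a, which encodes Sca1, had no probe set with its symbol alone. The labels give every sample as female, yet all 4 arrays had both Xist, the transcript of the inactive X chromosome, at 10.84 to 11.13 in its brightest probe set, and the Y-linked Kdm5d at 8.79 to 9.51. Over all genes negative replicate 3 was nearer to the array labelled positive than to negative replicates 1 and 2. It had 1170 genes at least 1 log2 unit from the array labelled positive, against 1992 and 2072 from negative replicates 1 and 2. Negative replicates 1 and 2 had 1600 such genes between them, and 1950 and 2013 against the array labelled positive. The count of members below the negative range and some of the member differences are therefore also given without negative replicate 3.

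In 12 of the 14 probe sets the array labelled positive was below the mean of the negative arrays, and no member passed the test. It lay below all 3 negative arrays in 10 of the 14, where 23.6% of all probe sets did, within their range in 4, where 53.1% did, and above it in 0, where 23.2% did. The median difference of the 14 probe sets was -0.48 log2 units, beside -0.01 over all probe sets. In limma, 0 of the 14 passed at a Benjamini-Hochberg adjusted p under 0.05, where 0% of all probe sets passed as higher and 0% as lower. At an unadjusted p under 0.05, limma gave 1 of the 14, a probe set of Dtx1, and 2032 of all probe sets. Each member had a limma adjusted p of 1, and the lowest of any probe set was 0.717. The lone positive array is assumed to vary like the negative arrays, with 2 residual degrees of freedom, and an array that is single gives no spread by which neighbours in the order of arrays could be told apart.

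Probe sets of the same gene share their RNA and the 4 arrays, so the 14 are not independent. With 1 probe set per gene, that with the highest mean, the array labelled positive lay below the negative range in 4 of 8 genes (Hes1, Hes5, Hes6 and Dtx1), beside 23% of all genes. With the probe sets of a gene averaged, an alternative chosen after seeing the data, it did so in 5 of 8, with Heyl added, beside 23.1% of all genes. Without negative replicate 3 the count was 11 of 14 probe sets, beside 32.5% of all probe sets, and limma again passed 0 of the 14. It was 10 of 14 without negative replicate 1, beside 34.5%, and 10 of 14 without negative replicate 2, beside 31%. With cyclic loess it was 9 of 14, and with 16 added before log2 it was 10 of 14, each beside 23.6% of all probe sets. Of the 14, 8 had a mean over the arrays above the median for the table, and 6 of these were below the range, beside 20.5% of such probe sets. A filter on that mean can be passed through the arrays where a probe set is high, as in Hes5 1456010_x_at and Nrarp 1417986_at, so the 6 are a description only. The median difference of the 14 was -0.49 against negative replicate 1, -0.62 against negative replicate 2 and -0.16 against negative replicate 3.

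**Figure D1:**
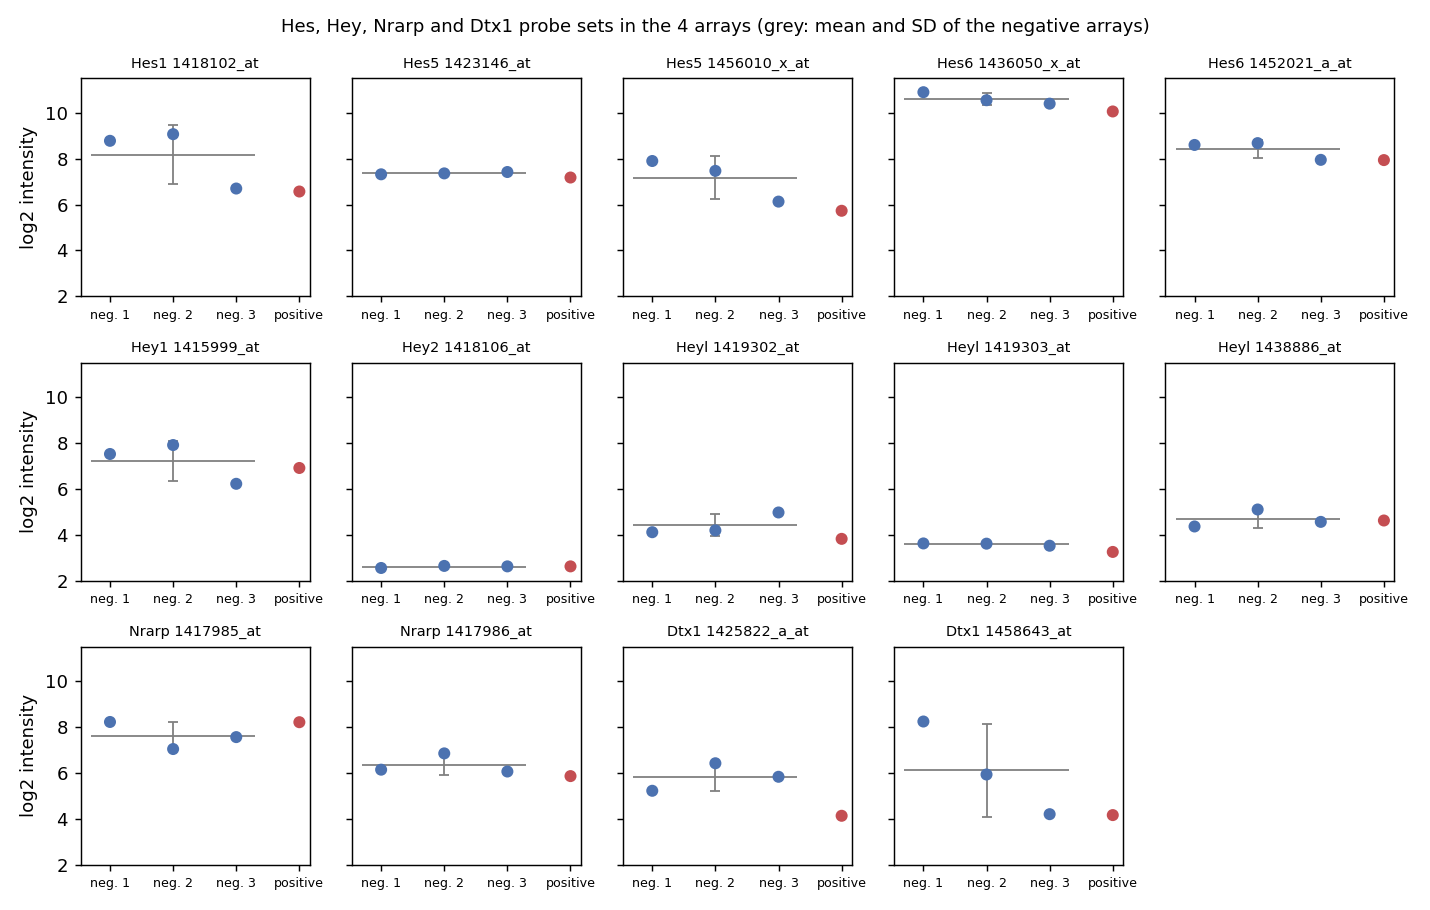
Log2 intensity of the 14 probe sets (vertical axis) in negative replicates 1, 2 and 3 (blue) and the array labelled positive (red), with the mean and SD of the negative arrays in grey (n = 3). The red point is the lowest in 10 panels, and in Hes1 and the second Dtx1 panel it lies 0.13 and 0.035 log2 units under negative replicate 3.

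Hes1 encodes the repressor whose locus carries the reporter. Its single probe set, 1418102_at, was at 8.78, 9.07 and 6.70 in negative replicates 1, 2 and 3 and at 6.57 in the array labelled positive. Negative replicates 1 and 2 were high, the other arrays low, and the one labelled positive was the lowest of the 4. The highest array was 5.67-fold above the lowest on the linear scale. From the negative mean of 8.18 ± 1.30 (SD, n = 3) the array labelled positive differed by -1.62 log2 units, with a 95% interval of -4.74 to 1.51 and a limma adjusted p of 1. Its distance to negative replicate 3 was only -0.13, while those to negative replicates 1 and 2 were -2.22 and -2.50. The difference was -1.32 without negative replicate 1, -1.17 without negative replicate 2, and -2.36 without negative replicate 3, where the limma adjusted p was 0.551. The transcript of the reporter's gene was thus not higher in the array labelled positive, though the interval is wide. Whether a label is wrong or the reporter does not follow the transcript was not tested, so samples are named by label only.

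Hes5, a close relative of Hes1 and a classical Notch target of neural progenitors, had a pair of probe sets that disagreed in size. The probe set 1423146_at was at 7.32, 7.36 and 7.42 in negative replicates 1, 2 and 3 and at 7.18 in the array labelled positive. All 4 arrays lay within 0.24 log2 units of each other there. The probe set 1456010_x_at was at 7.90, 7.47, 6.13 and 5.73 in the same order, which was again low in negative replicate 3 and lowest in the array labelled positive. The differences from the negative mean were -0.18 (95% interval -0.73 to 0.37) for the first and -1.44 (-3.70 to 0.83) for the second. In this array design the suffix _x_at marks probe sets with probes that can match other transcripts, and which transcripts gave the signal was not tested. The second was the nearest member to Hes1 by Euclidean distance over the 4 arrays, with each probe set centred on its own mean. That distance was 0.76 log2 units, while that of the first was 2.26. The values were not scaled to one span, so a probe set with the order of Hes1 but a small span is also distant.

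The promoter of Hes5 is shown because it carries the letters bound by Rbpj, GTGGGAA, on both strands. In the 250 bases before the start site of the RefSeq promoter table (GRCm38.p6), a search of both strands found GTGGGAA at 226 to 220 bases before the start on the minus strand, where it reads TTCCCAC, and at 83 to 77 bases before it on the plus strand. At least 1 match was present in 5.42% of all 32851 promoter windows of that length, and at least 2 matches in 0.161%. The 2 sites lie at chr4:154960685-154960714 and chr4:154960828-154960857, both printed on the plus strand, with the match in capitals.
Hes5 site 1: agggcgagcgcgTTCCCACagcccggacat
Hes5 site 2: tggccgccgagtGTGGGAAcggccgcggcg
The table held promoters of 5 of the 8 genes, namely Hes5, Hes6, Hey2, Nrarp and Dtx1. Among them GTGGGAA was found in Hes5 and Hey2.

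Hes6 differs from its relatives in that its protein is known to counteract Hes1. Probe set 1436050_x_at was at 10.90, 10.55 and 10.40 in negative replicates 1, 2 and 3 and at 10.06 in the array labelled positive. Probe set 1452021_a_at was at 8.60, 8.68, 7.95 and 7.94. Both placed the array labelled positive lowest and negative replicate 3 next, but the gap between these was 0.34 log2 units in the first and 0.019 in the second. From the negative mean the array labelled positive differed by -0.55 (95% interval -1.36 to 0.26) and -0.48 (-1.56 to 0.61), and both probe sets spanned less than 1 log2 unit over the 4 arrays.

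Hey1, a repressor of the Hey family with known roles in vessels and the heart, had 1 probe set, 1415999_at. It was at 7.52, 7.91 and 6.22 in negative replicates 1, 2 and 3 and at 6.91 in the array labelled positive. Here negative replicate 3 was lowest and the array labelled positive lay 0.69 log2 units above it, inside the negative range. The difference from the negative mean was -0.31 (95% interval -2.47 to 1.86), and it turned to 0.039 without negative replicate 2. Hey1 had a distance of 1.29 from the pattern of Hes1, the next smallest after the second Hes5 probe set. The distance depends on span as well as order. Hes6 1452021_a_at had the array order of Hes1, but a span of 0.75 and a distance of 1.61.

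Hey2, a repressor known from artery and heart development, was flat at a very low level. Its probe set 1418106_at was at 2.55, 2.64 and 2.62 in negative replicates 1, 2 and 3 and at 2.62 in the array labelled positive. The whole spread over the 4 arrays was 0.086 log2 units and the difference 0.018 (95% interval -0.53 to 0.57). No detection calls were at hand, and this probe set lay far under 6.23, the median level of all probe sets. It had the lowest mean of the 14, near the low end of the values, where a fall could hardly show. Its small span therefore says little about the transcript. The promoter of Hey2 is shown because it holds GTGGGAA, as that of Hes5 does. The match, in capitals, reads TTCCCAC on the strand of the gene and lies 207 to 201 bases before the start. The stretch is chr10:30842784-30843033 of GRCm38.p6, minus strand, the 250 bases up to the start.
Hey2 promoter: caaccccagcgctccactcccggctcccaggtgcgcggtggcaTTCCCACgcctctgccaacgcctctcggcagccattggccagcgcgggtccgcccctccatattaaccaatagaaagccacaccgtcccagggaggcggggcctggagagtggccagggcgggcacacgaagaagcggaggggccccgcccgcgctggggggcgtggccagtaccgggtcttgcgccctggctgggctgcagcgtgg

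Heyl, the remaining Hey gene, known as a Notch target of vascular smooth muscle, had 3 probe sets, all under the median level of all probe sets. Probe set 1419302_at was at 4.11, 4.19 and 4.97 in negative replicates 1, 2 and 3 and at 3.82 in the array labelled positive. Probe set 1419303_at was at 3.62, 3.61, 3.52 and 3.25, and 1438886_at at 4.36, 5.10, 4.56 and 4.62. The array labelled positive was lowest in the first and second of these and inside the negative range in the last. Negative replicate 3 was the highest array in the first, the reverse of its place in Hes1. The differences were -0.61, -0.34 and -0.055, with 95% intervals of -1.86 to 0.64, -0.89 to 0.21 and -1.11 to 1.00. The first was -0.34 without negative replicate 3. With 16 added before log2 the first and second were -0.33 and -0.14.

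Nrarp encodes a small ankyrin repeat protein that is switched on by Notch and dampens the Notch nuclear complex. Its pair of probe sets pointed in opposite directions, and among the 5 genes with several probe sets it was the 1 gene where this was so. Probe set 1417985_at was at 8.23, 7.05 and 7.57 in negative replicates 1, 2 and 3 and at 8.22 in the array labelled positive. There negative replicate 1 and the array labelled positive were high and negative replicate 2 low, unlike Hes1, with a distance of 2.81 from its pattern, the largest of the 14. Probe set 1417986_at was at 6.15, 6.86, 6.07 and 5.87, highest in negative replicate 2 and lowest in the array labelled positive. The differences were 0.61 (95% interval -0.90 to 2.11) and -0.49 (-1.65 to 0.67), and averaging the probe sets gave 0.058. Without negative replicate 2 they were 0.32 and -0.24, and without negative replicate 3 they were 0.58 and -0.64.

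The promoter of Nrarp is shown as the one of the 5 that held CACGTG, an E-box that Hey and other basic helix-loop-helix proteins can bind. CACGTG reads the same on both strands and was found in 6.02% of the 32851 windows of 250 bases. It lies 108 to 103 bases before the start and is in capitals. The stretch is chr2:25180508-25180757 of GRCm38.p6, plus strand, the 250 bases up to the start.
Nrarp promoter: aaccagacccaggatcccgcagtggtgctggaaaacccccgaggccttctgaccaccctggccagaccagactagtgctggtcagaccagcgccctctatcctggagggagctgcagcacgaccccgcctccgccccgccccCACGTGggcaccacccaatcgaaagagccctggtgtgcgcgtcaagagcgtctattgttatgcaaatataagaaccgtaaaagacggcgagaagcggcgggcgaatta
The N-box CACNAG, to which Hes proteins can bind, was found on either strand in the windows of Nrarp, Hes6 and Dtx1, and in 36.7% of all windows.

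Dtx1, an E3 ubiquitin ligase that binds the intracellular part of Notch and is a known Notch target of lymphocytes, had differences of -1.70 and -1.96 in its probe sets, which became -1.13 and -1.48 with 16 added before log2, where Hes1 was at -1.49. Probe set 1425822_a_at was at 5.23, 6.43 and 5.84 in negative replicates 1, 2 and 3 and at 4.14 in the array labelled positive. The array labelled positive lay 1.09 log2 units under the lowest negative array, the widest such gap of the members. Its difference of -1.70 from a negative mean of 5.83 ± 0.60 (SD, n = 3) had a 95% interval of -3.23 to -0.17 and a limma adjusted p of 1. It was -2.00 without negative replicate 1, -1.40 without negative replicate 2 and -1.69 without negative replicate 3.

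The other Dtx1 probe set, 1458643_at, was at 8.25, 5.94, 4.21 and 4.17, a 16.9-fold span on the linear scale. Negative replicate 1 was far above negative replicate 2, and the array labelled positive nearly equalled negative replicate 3 at the bottom. The difference was -1.96 (95% interval -6.80 to 2.89), and it was -0.90 without negative replicate 1 and -2.92 without negative replicate 3. After cyclic loess normalization the array labelled positive was within the negative range of this probe set. The probe sets of Dtx1 agreed that the array labelled positive was lowest but disagreed on negative replicate 1, the lowest negative array in one and the highest in the other. Both lay under the median level of all probe sets.

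**Figure D2:**
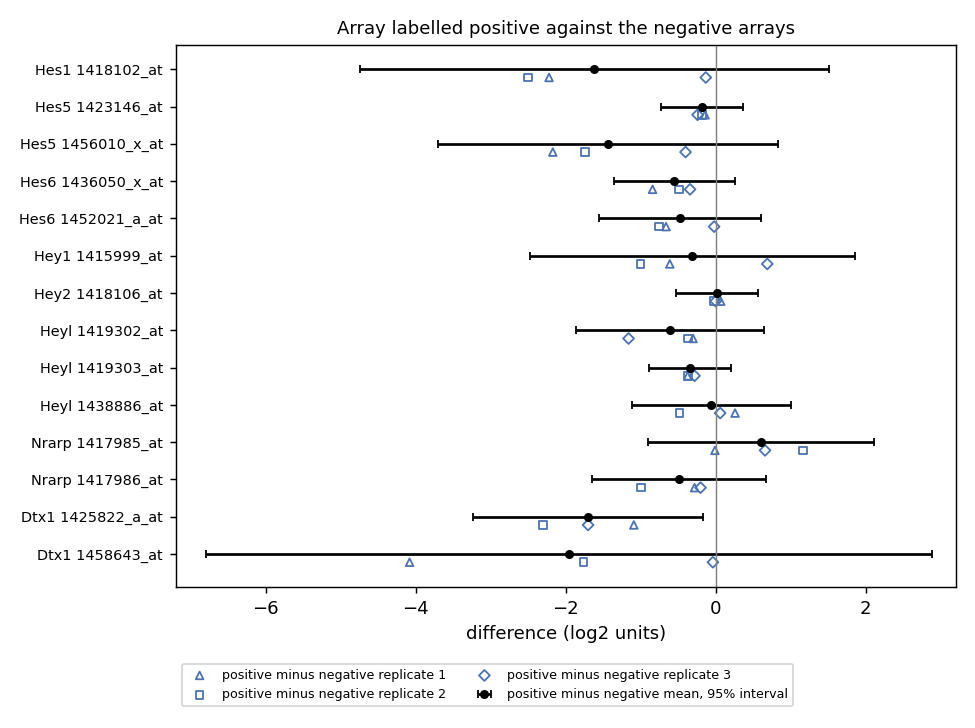
Difference of the array labelled positive from the mean of the negative arrays (black, log2 units, with the 95% interval of limma) and from each negative replicate (blue). In 13 of 14 probe sets the interval includes 0, the exception being Dtx1 1425822_a_at, and for Hes1 the difference from negative replicate 3 is near 0.

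The order of the arrays was shared by some of the members only. The 2 lowest arrays were negative replicate 3 and the one labelled positive in 8 of the 14 probe sets, beside 17.8% of all probe sets, and these were the 2 highest in 0, beside 21.5% of all probe sets. The 8 were those of Hes1, Hey1 and Hes6, the second of Hes5, of Nrarp and of Dtx1, and the middle one of Heyl. In 7 of the 14 the highest and lowest array were at least 1 log2 unit apart, beside 29% of all probe sets. The distance from the pattern of Hes1 ran from 0.76 to 2.81 log2 units over the other 13. This order puts samples of one label on both sides, and it is given as a description with no test.

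Some genes outside the family came closer to Hes1 than any member did, though many more genes were searched than there are members. Over the 4 arrays, and among 18185 genes with 1 probe set each, the nearest was Folr2, a folate receptor of tissue macrophages, at a distance of 0.17 log2 units. It was at 7.90, 7.96 and 5.77 in negative replicates 1, 2 and 3 and at 5.59 in the array labelled positive. Next came Ctsw, a cathepsin of cytotoxic lymphocytes, at 0.20, Cox6a2, a subunit of cytochrome oxidase, at 0.22, and Kcna2, a potassium channel, at 0.23. Axl, a receptor kinase found on macrophages among other cells, was at 0.24, and Ccl5, a chemokine of T cells and other leucocytes, at 0.25. In all, 181 of the 18185 genes lay within 1 log2 unit of the pattern of Hes1. Among the members the second Hes5 probe set did so, at 0.76, and Hey1 was next at 1.29.

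Macrophage and B lineage markers, most T lineage markers and part of the endothelial markers were high and low in the same arrays as Hes1. Summed over 12 macrophage genes (C1qa and Cd163 among them), the linear intensity was 34700, 33200 and 8710 in negative replicates 1, 2 and 3 and 7900 in the array labelled positive, and in 12 of 12 the last 2 arrays were the lowest. For 9 of 10 B lineage genes measured, such as Cd79a and Ebf1, the sums were 26000, 25000, 4310 and 4200, with the same order in 9 of 9. For 7 of 8 T lineage genes they were 2550, 2700, 817 and 810, with that order in 5 of 7, and for 12 endothelial genes 6500, 6470, 3590 and 3130, with it in 6 of 12. Granulocyte and monocyte genes (7 of 8 measured) went the other way, at 40400, 40400, 66400 and 66800. Hepatoblast genes (8) summed to 2590, 1910, 3170 and 3300, but they were mixed. Dlk1, Krt18 and Hnf4a were highest in negative replicate 3 and the array labelled positive. Alb, at 8.98, 8.29, 7.22 and 7.62, was the 1 hepatoblast gene lowest in that pair. Erythroid genes (6 of 8 measured) summed to 14200, 15000, 18300 and 17900, and mesenchymal genes (8) to 1010, 1190, 1300 and 1270. Of these, 0 erythroid and 2 mesenchymal genes were lowest in that pair. The 10 markers of the sorted cells summed to 17900, 14800, 16400 and 18200, with no such order in the sums. In 4 of these 10 genes, though, negative replicate 3 and the array labelled positive were the 2 lowest. No probe set is at 0 in these values, whose lowest linear intensity was 4.27. The part of these cell types in the Hes1, Hes5 and Dtx1 values was not tested, and in bulk RNA fewer cells of a type and less RNA per cell cannot be told apart.

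**Figure D3:**
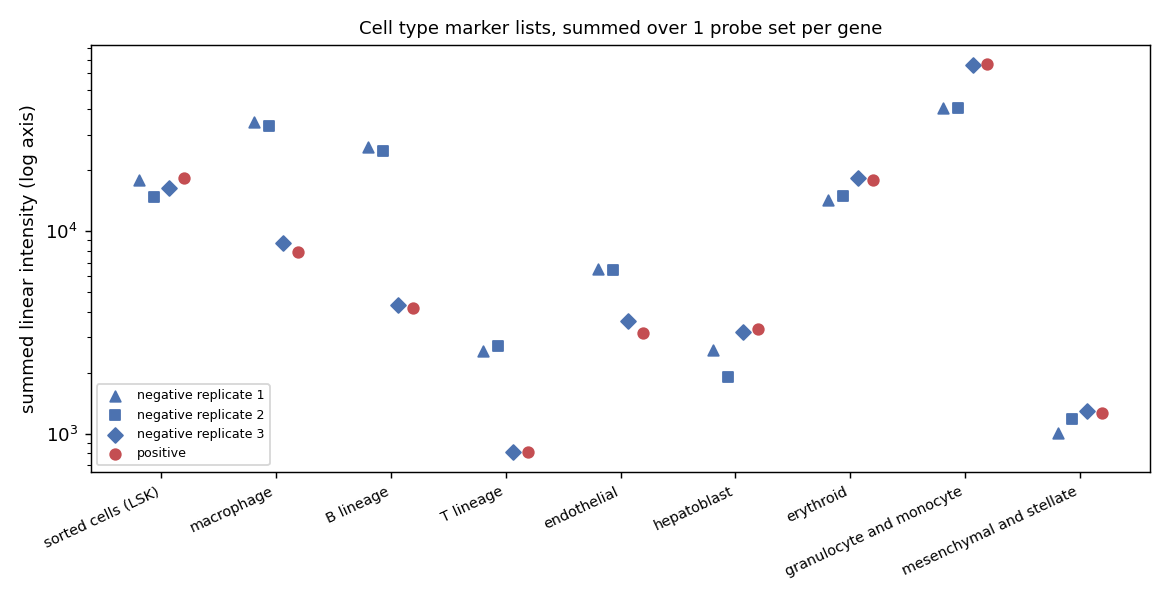
Summed linear intensity (log axis) of each marker list in negative replicates 1, 2 and 3 (blue) and the array labelled positive (red). The macrophage, B lineage and T lineage sums are low in the same pair of arrays as Hes1, while the sums of the sorted cells' own markers lie between 14800 and 18200.

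Other genes of the Notch pathway lay below and above the negative range about as often as genes in general. Of 92 other pathway genes listed, 82 had a probe set with their symbol alone, and the array labelled positive lay below the negative range in 21, above it in 21 and within it in 40, beside 23% of all genes below and 23.6% above. Their median difference was -0.003 log2 units, where equalized arrays put that of all genes near 0, and limma passed 0 of the 82, with a lowest adjusted p of 0.847. The lists below overlap in a few genes.

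Of the 4 receptors, 2 lay below the negative range and 0 above, with a median of -0.37. Notch1, the main receptor of early T cell progenitors, was at 11.75, 11.74 and 10.85 in negative replicates 1, 2 and 3 and at 10.50 in the array labelled positive. Notch3, a receptor and itself a Notch target, was at 8.27, 8.52, 6.15 and 7.04. Both had the same lower pair of arrays as Hes1. Notch1 differed by -0.95, or by -1.15 with its probe sets averaged, and Notch3 by -0.61, or by -1.6 when averaged. Notch2 differed by -0.14, or by 0.076 with its probe sets averaged, and Notch4 by 0.17, or by -0.072 when averaged.

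Of the 7 ligands, 1 lay below the range, 1 above and 5 within, with a median of -0.003. Jag2 differed by -0.37, Jag1 by 0.25, Dll1 by -0.52, Dll3 by -0.003 and Dll4 by -0.15. The non-canonical ligand Dlk1, which foetal hepatoblasts express, differed by 1.01 with an SD of 1.72 over the negative arrays, and its relative Dlk2 by 0.022. Among 13 of 15 enzymes that glycosylate or cut the receptors, 2 lay below and 4 above. Lfng, a fringe enzyme that adds sugars to Notch, differed by -0.57, Rfng by 0.47 and the glucosyltransferase Poglut1 by 0.62.

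Of 15 of 18 genes of the nuclear complex and its repressors, 5 lay below and 3 above, with a median of -0.002. Rbpj, the factor that binds the letters shown for Hes5, was at 8.29, 9.46, 9.29 and 9.41, within the negative range. Rbpj differed by 0.39, or by 0.059 with its probe sets averaged. Its repressor partner Spen differed by -0.65, and the acetyltransferase Kat2b by -0.48, or by 0.12 with its probe sets averaged. Fhl1, a LIM protein with an isoform that binds Rbpj, was at 6.48, 6.64, 5.93 and 8.20, a difference of 1.85, or 0.98 with its probe sets averaged, and had the lowest limma adjusted p of the pathway, 0.847.

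Among relatives and partners of the Hes and Hey proteins, 15 genes were measured, 3 below and 5 above the range, and the median was 0.11. Hes7, the oscillator of the segmentation clock, was at 4.93, 4.68 and 5.41 in negative replicates 1, 2 and 3 and at 6.19 in the array labelled positive. This was the reverse of Hes1, with the array labelled positive highest. The Groucho co-repressors Tle1, Tle2, Tle3 and Tle4, which Hes proteins recruit, differed by 0.11, 0.25, -0.44 and -0.55, and those of Tle1 and Tle4 turned to -0.19 and 0.082 with averaged probe sets. Id1, Id2 and Id3, which keep helix-loop-helix partners from binding DNA, differed by 0.45, 0.31 and 0.23, and Id2 by 0.036 with averaged probe sets. Bhlhe40, a related repressor, differed by 0.48.

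Among 13 genes of Notch turnover, 2 lay below and 5 above, with a median of 0.23. In none of the listed relatives of Dtx1 was the array labelled positive below the negative range. Dtx2 was at 9.74, 11.04, 10.09 and 10.07, and Dtx3 at 7.97, 7.69, 7.12 and 8.33. Dtx3l was at 9.86, 9.96, 10.16 and 10.22, and Dtx4 at 9.26, 9.47, 7.85 and 9.12. Dtx3 and Dtx3l were highest in the array labelled positive, and Dtx2 and Dtx4 were within the negative range. Numbl, a relative of the Notch antagonist Numb, differed by 1.03, Neurl3 by -0.46 and Neurl1b by 0.37.

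Of 11 of 12 Notch targets of blood cells, 5 lay below and 1 above, with a median of -0.18. Bcl11b, a T lineage factor, was at 9.23, 8.61, 4.58 and 4.78, a difference of -2.70 within the negative range, or -1.46 with its probe sets averaged. Gata3, a T cell transcription factor, differed by -1.60, Il2ra, a chain of the interleukin 2 receptor, by -0.74 (-0.39 with averaged probe sets) and Ptcra, the pre-T cell receptor chain, by -0.18. Of 8 of 10 genes that Hes1 is known to repress, 2 lay below and 2 above, with a median of -0.14. The cell cycle inhibitors Cdkn1a, Cdkn1b and Cdkn1c differed by -0.14, 0.26 and -0.91. Cdkn1a, at 9.30, 9.31, 8.28 and 8.82, and Cdkn1c, at 9.19, 7.87, 7.44 and 7.26, were low where Hes1 was low. That order held in 2 of the 8. Cdkn1b, at 10.31, 10.47, 10.63 and 10.73, was high where Hes1 was low. Cebpa, a factor of granulocyte development, was at 8.55, 8.48, 9.85 and 9.55, also high where Hes1 was low, and differed by 0.59. Fbxw7 differed by -0.35, or by 0.060 with its probe sets averaged.

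**Figure D4:**
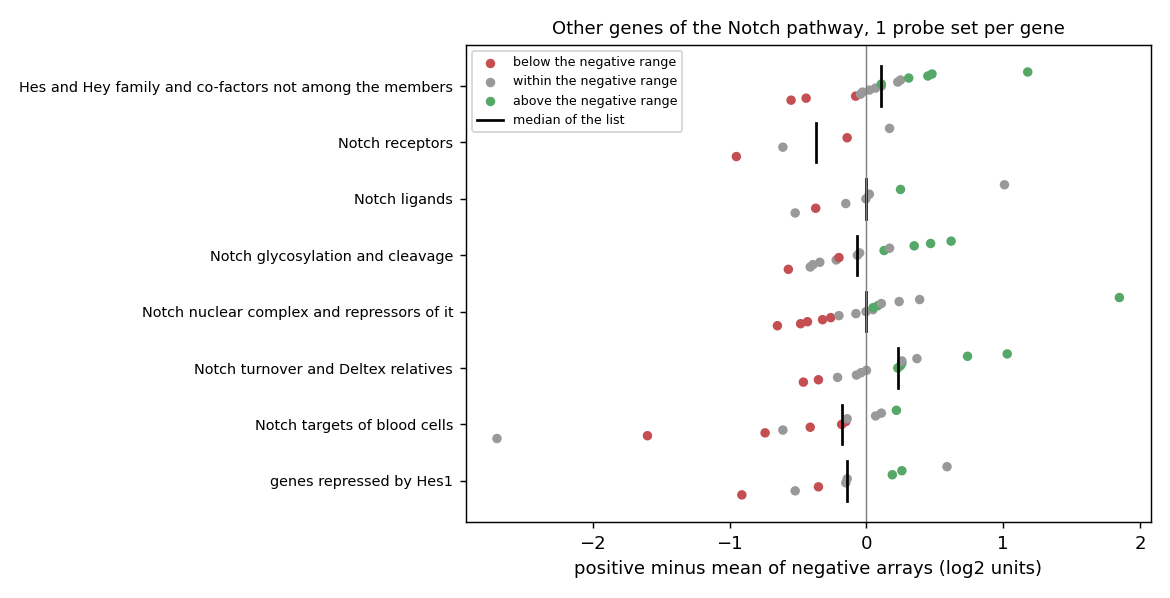
Difference of the array labelled positive from the mean of the negative arrays (log2 units) for other genes of the pathway, 1 point per gene, coloured by its place relative to the 3 negative arrays, with each list's median as a black bar. The medians run from -0.37 for the receptors to 0.23 for the turnover genes, with points on both sides of 0 in each list.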

How the data were processed

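The deposited values are probe set intensities of 4 Affymetrix arrays on a linear scale, made by the authors with RMA per the submitters' processing notes. That method subtracts background, gives all arrays one distribution and reduces the probes of a probe set to a single value, which hides any difference in total RNA. The linear scale follows from the values (lowest 4.27). The version and the genome build were not given in the sources used here, and the scanner files and detection calls were not used here. Log2 was taken with no pseudocount. After 64 control probe sets were set aside, the other 45037 were fitted, positive against negative, by lmFit and eBayes of limma 3.58.1 in R 4.3.3, two-sided, with Benjamini-Hochberg adjustment over all of them and a threshold of 0.05. On simulated data the check was only that the fit returned, on average, the differences that had been added. It does not show how often a true difference would pass with so few arrays. Probe sets were named by the platform annotation where it gave 1 symbol (932 had several, 9160 none). For the lists the probe set with the highest mean stood for a gene.

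The members and lists were chosen with earlier results of these data known. Named genes were all members, a fixed set of pathway genes, up to 3 more per list by size of difference, and the 6 genes nearest to Hes1. Alternatives were cyclic loess, 16 added before log2, a filter at the median level, trend and robust settings, 1 probe set per gene, averaged probe sets, and each negative replicate left out. The number of arrays limits the precision. Promoter sequences are from RefSeq (GRCm38.p6).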

Additional observations from a re-analysis of the deposited data

How the results depend on the processing

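limma passed 0 probe sets under each alternative run, with lowest adjusted p-values of 0.311 to 1, and with so few arrays this says nothing about stability. Of 70 refitted member differences that could move, 67 kept their direction (the filter, trend and robust settings and 1 probe set per gene leave a difference as it is). The 3 that turned did so when a negative replicate was left out, with a range of -0.80 to 0.039 for Hey1, -0.21 to 0.16 for Heyl 1438886_at and -0.007 to 0.036 for Hey2. The count of member probe sets below the negative range, 10 of 14, was 9 with cyclic loess, 10 with 16 added before log2, and 10 to 11 with a negative replicate left out. It was 6 of the 8 probe sets above the median level. It was 4 of 8 genes with 1 probe set per gene, and 5 of 8 genes with averaged probe sets, an alternative chosen after seeing the data. These counts have fewer members by construction. The count above the range was 1 with cyclic loess (Hey2) and 0 to 2 with a negative replicate left out. The share of all probe sets above the range was not computed for these settings. Without that share these counts cannot be read as a result about the members. Leaving out a replicate leaves 1 residual degree of freedom. No paired analysis was possible because the groups share only replicate number 1. With 1 positive array and 3 negative arrays, the width of the intervals limits every difference.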
